A study of Mus musculus with 6 samples.

Results

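The telomere-proximal zones described here are the last 60 bins of 50 kb on each of the 19 mouse autosomes, counted back from the last bin that carried a subcompartment label in all 6 Hi-C libraries, which is 3 Mb per chromosome. They were chosen by position alone. They held 1132 of the 47717 bins labelled in all 6 libraries (2.37%), and another 8 positions in 4 zones had no such label and were left out. They held 711 of 20375 protein-coding genes, each placed by its midpoint, or 12.6 genes per labelled Mb against 8.44 in the rest of the autosomes. Of the loops, 133 of 6013 in the Brg1KD list, 119 of 5475 in the Ino80KD list and 137 of 5903 in the Control list had both anchors in a zone.

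Hi-C, which records which stretches of DNA lie close together in the nucleus, was run on E14 cells, a mouse embryonic stem cell line grown with serum and leukemia inhibitory factor. Brg1KD cells had received esiRNA (short interfering RNA cut from long RNA by an enzyme) against Smarca4, which encodes BRG1, an ATPase of the BAF remodelling complexes. Ino80KD cells had received esiRNA against Ino80, which encodes the motor subunit of the INO80 nucleosome remodeller, and Control cells had received esiRNA against EGFP, which is no mouse gene. All were wild-type cells of passages 18 to 26, harvested 48 h after transfection, with 2 libraries per group whose replicate number is also their batch. Each knockdown was transient, and neither its strength nor markers of the cell type can be read from subcompartments and loops. Nothing in the labels says that replicates were separate cultures, so p-values measure only the spread between these samples.

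Chromatin in the nucleus separates into A compartments, which are rich in active genes, and B compartments, which hold more repressed and lamina-associated chromatin. Each library's segments had been given one of 8 subcompartment labels, which run as ranks 1 to 8 through B.2.2, B.2.1, B.1.2, B.1.1, A.2.2, A.2.1, A.1.2 and A.1.1. Mouse autosomes have their centromere at one tip, so the end studied here is the one far from the centromere, where unique sequence gives way to telomere repeats. Loops at this scale are commonly anchored at sites bound by CTCF and held by cohesin, and BAF and INO80 both move or edit nucleosomes, BAF mostly at enhancers and promoters.

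The promoters of 5 zone genes are printed because the labels or loops at these genes carry the results below: Ets2 moved in both knockdowns, Ascl2 moved and Krt5 was labelled A in place of B in Brg1KD, Hmgb1 has its midpoint in a stretch that moved towards A and its promoter in the next bin, and Emx2 has its end in the anchor of a loop of the Control list. The printed Emx2 promoter lies just outside that anchor. Each runs 5′ to 3′ along the gene's strand over 300 bases (250 before the start of transcription to 50 after it; RefSeq, GRCm38.p6, the patched mm10 build), with every CG dinucleotide in capitals.
Ets2 (chr16:95702157-95702456, plus strand): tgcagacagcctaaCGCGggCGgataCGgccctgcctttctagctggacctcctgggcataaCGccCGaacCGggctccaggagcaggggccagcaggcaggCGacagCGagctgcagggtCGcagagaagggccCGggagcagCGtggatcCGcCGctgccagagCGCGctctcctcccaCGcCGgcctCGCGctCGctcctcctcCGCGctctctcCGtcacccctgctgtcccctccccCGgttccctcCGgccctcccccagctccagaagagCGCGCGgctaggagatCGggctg
Ascl2 (chr7:142969215-142969514, minus strand): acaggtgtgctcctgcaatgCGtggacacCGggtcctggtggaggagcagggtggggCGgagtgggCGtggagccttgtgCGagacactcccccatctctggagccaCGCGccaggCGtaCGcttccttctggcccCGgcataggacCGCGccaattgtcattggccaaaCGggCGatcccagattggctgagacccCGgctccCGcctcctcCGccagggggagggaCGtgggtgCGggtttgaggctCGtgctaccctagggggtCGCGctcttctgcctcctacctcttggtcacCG
Hmgb1 (chr5:149053008-149053307, minus strand): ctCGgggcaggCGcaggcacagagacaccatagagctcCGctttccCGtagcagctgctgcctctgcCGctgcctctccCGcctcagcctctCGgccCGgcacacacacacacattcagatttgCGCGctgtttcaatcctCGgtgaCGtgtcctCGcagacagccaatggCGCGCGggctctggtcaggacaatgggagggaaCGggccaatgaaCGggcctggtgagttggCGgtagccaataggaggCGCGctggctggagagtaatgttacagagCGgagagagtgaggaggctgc
Krt5 (chr15:101712856-101713155, minus strand): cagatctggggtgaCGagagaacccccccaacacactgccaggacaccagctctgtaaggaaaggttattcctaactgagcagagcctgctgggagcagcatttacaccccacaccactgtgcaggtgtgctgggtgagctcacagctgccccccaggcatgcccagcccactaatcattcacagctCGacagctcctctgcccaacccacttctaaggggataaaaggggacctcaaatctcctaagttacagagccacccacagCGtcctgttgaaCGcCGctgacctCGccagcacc
Emx2 (chr19:59458440-59458739, plus strand): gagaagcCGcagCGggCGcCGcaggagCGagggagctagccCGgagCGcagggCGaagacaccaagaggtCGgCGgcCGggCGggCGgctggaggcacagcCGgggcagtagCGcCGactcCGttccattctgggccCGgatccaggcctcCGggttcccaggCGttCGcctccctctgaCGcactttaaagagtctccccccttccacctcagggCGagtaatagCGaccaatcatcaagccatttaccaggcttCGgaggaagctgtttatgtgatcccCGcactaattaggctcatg
The Ets2 promoter holds 30 CG dinucleotides, that of Emx2 26, that of Ascl2 23, that of Hmgb1 22 and that of Krt5 6. The median was 8 over the 1065 promoters listed in the zones and 7 over all 31396 autosomal promoters. Another start is listed for Hmgb1, and its promoter (chr5:149051567-149051866), not printed, holds 45 CG dinucleotides. The core of the motif of the loop protein CTCF was searched on both strands. It was read as CCA, AG and GGC in that order with 2 free bases between neighbours. The printed Hmgb1 promoter holds it as CCAATAGGAGGC at bases 240 to 251, with no match in the other 4 printed. The promoter at the other Hmgb1 start has no match either. This core was present in 34 of 1065 zone promoters (3.19%), against 776 of 31396 autosomal promoters (2.47%). The telomere repeat TTAGGG, searched on both strands as 2 copies in tandem, was in none of the zone promoters and in 4 of all autosomal ones.

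As a set, the zones were richer in A than the rest of the autosomes, and the difference came from their inner part. The share of zone bins in A was 43.2% and 44.9% in Brg1KD, 42.2% and 46.2% in Ino80KD, and 46.0% and 46.6% in Control libraries. In the rest of the autosomes it was 38.3% and 38.7% in Brg1KD, 38.4% and 38.4% in Ino80KD, and 39.4% and 39.5% in Control libraries. Every library thus had a higher A share in its zones, by 6.07 percentage points on average (SD 1.46, n = 6 libraries; exact two-sided sign-flip test p = 0.03125, the smallest that 6 libraries can give, adjusted p = 0.0469 over 12 measures). The mean rank was higher by 0.338 classes (SD 0.0526, 6 of 6 libraries, the same p). All 6 libraries read the same positions, so these p-values measure the spread between libraries and not that between chromosomes. By Control A share, the zone lay above the rest of its own chromosome in 10 of 19 cases.

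The zones differed most from the rest in the class at the B extreme. B.2.2, the most B-like class, took 11.9% of zone bins on average over the 6 libraries and 23.4% of the rest. It was less frequent in the zones of all 6 libraries, by 11.5 points (SD 1.91; exact p = 0.03125). A.1.1, the class at the other extreme, was also less frequent in the zones in 6 of 6 libraries (11.6% against 14.4%), while A.1.2 (13.4% against 9.69%) and A.2.2 (9.70% against 7.08%) were more frequent in all 6. Segment borders were denser, with 2.35 per Mb in zones against 2.12 in the rest (6 of 6 libraries; exact p = 0.03125). The plot of shares by library shows these differences beside the spread between replicates.

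**Figure D1:**
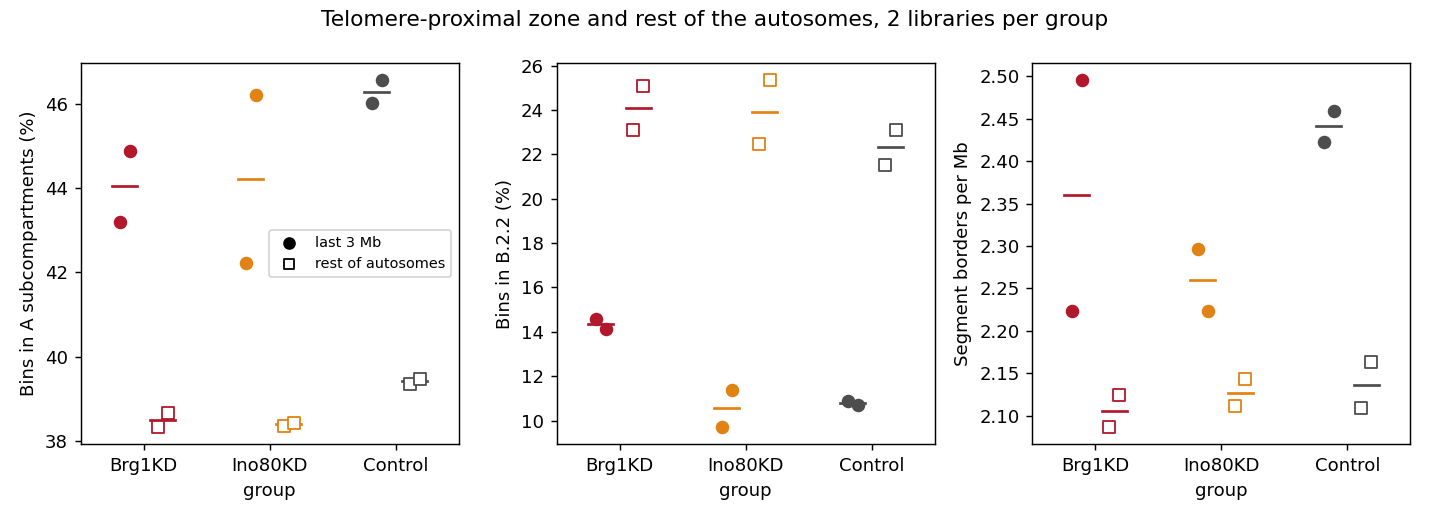
Share of 50 kb bins in A subcompartments (left, percent), share in B.2.2 (middle, percent) and segment borders per Mb (right) in each of 6 libraries, with the last 3 Mb as filled circles, the rest of the autosomes as open squares and lines at the mean of 2 libraries; the vertical axes do not start at 0. All 6 libraries have more A and less B.2.2 in the zones, and both Brg1KD libraries (14.6% and 14.1%) lie above the other 4 in zone B.2.2.

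Labels changed inward from the chromosome end. In steps of 500 kb from the end, the A share of Brg1KD libraries averaged 38.0%, 38.0%, 31.0%, 42.8%, 60.5% and 53.7%. That of Ino80KD libraries averaged 39.1%, 37.8%, 31.2%, 45.0%, 57.6% and 54.5%. The A share of Control libraries averaged 38.0%, 41.2%, 32.0%, 46.5%, 60.8% and 58.99%, so all 3 groups were lowest at 1 to 1.5 Mb and highest within the zones at 2 to 2.5 Mb. The next step outside the zones was at 46.8% in Brg1KD, 47.9% in Ino80KD and 55.3% in Control. The outer 1.5 Mb were in A at 35.2% and 36.1% in Brg1KD, 35.6% and 36.5% in Ino80KD, and 37.5% and 36.6% in Control, below the rest of the autosomes in each of the 6 libraries. The inner 1.5 Mb were in A at 51.2% and 53.6% in Brg1KD, 48.9% and 55.9% in Ino80KD, and 54.5% and 56.4% in Control. With the zone set at 1.5 Mb the difference from the rest therefore turned, to -2.70 percentage points (exact sign-flip p = 0.03125). Pooled over all zones, the steps from the end inward held 12.9, 15.5, 12.7, 12.1, 12.1 and 10.1 protein-coding genes per Mb. These pooled values were thus not lower in the outer steps, but the zone of chromosome 10 alone held 130 of the 711 genes. Zone bins in A in all 6 libraries held 22.6 genes per Mb, and those in B in all 6 held 5.70. Whether gene density bears on the low A share of the outer steps was not tested.

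**Figure D2:**
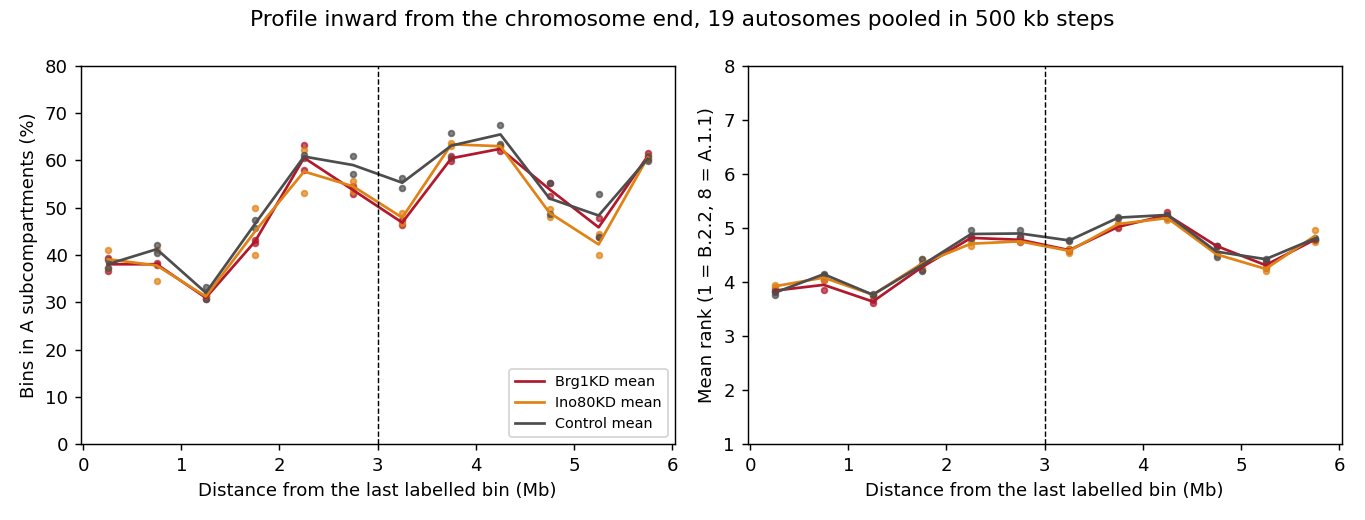
A share (left, percent of bins) and mean rank (right, 1 for B.2.2 to 8 for A.1.1) in steps of 500 kb from the last labelled bin, over 19 autosomes; lines are means of 2 libraries, points are libraries, and the dashed line marks the zone border at 3 Mb. Control A share is 32.0% at 1 to 1.5 Mb and 60.8% at 2 to 2.5 Mb, while at 3 to 3.5 Mb, outside the zones, the A share is 46.8% in Brg1KD, 47.9% in Ino80KD and 55.3% in Control.

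The border of the zone is not a border in the data. At the innermost zone bin the mean rank over 19 chromosomes was 4.37 in Brg1KD, 4.26 in Ino80KD and 4.45 in Control, and at the next bin outside it was 4.40, 4.29 and 4.50 in the same groups. At the last labelled bin it was 4.11 in Brg1KD, 4.00 in Ino80KD and 3.90 in Control. That last bin was in A in all 6 libraries on 5 chromosomes, in B in all 6 on 10, and mixed on 4.

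The 19 zones were far from alike. By Control A share the highest were chromosome 4 at 95.0%, chromosome 11 at 91.5% and chromosome 2 at 85.0%, and the lowest were chromosome 17 at 2.50%, chromosome 18 at 3.51% and chromosome 3 at 5.83%. The zone lay above the rest of its own chromosome in 10 of 19 cases. This spread between chromosomes is much wider than that between libraries of 1 chromosome, as the plot by chromosome shows.

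**Figure D3:**
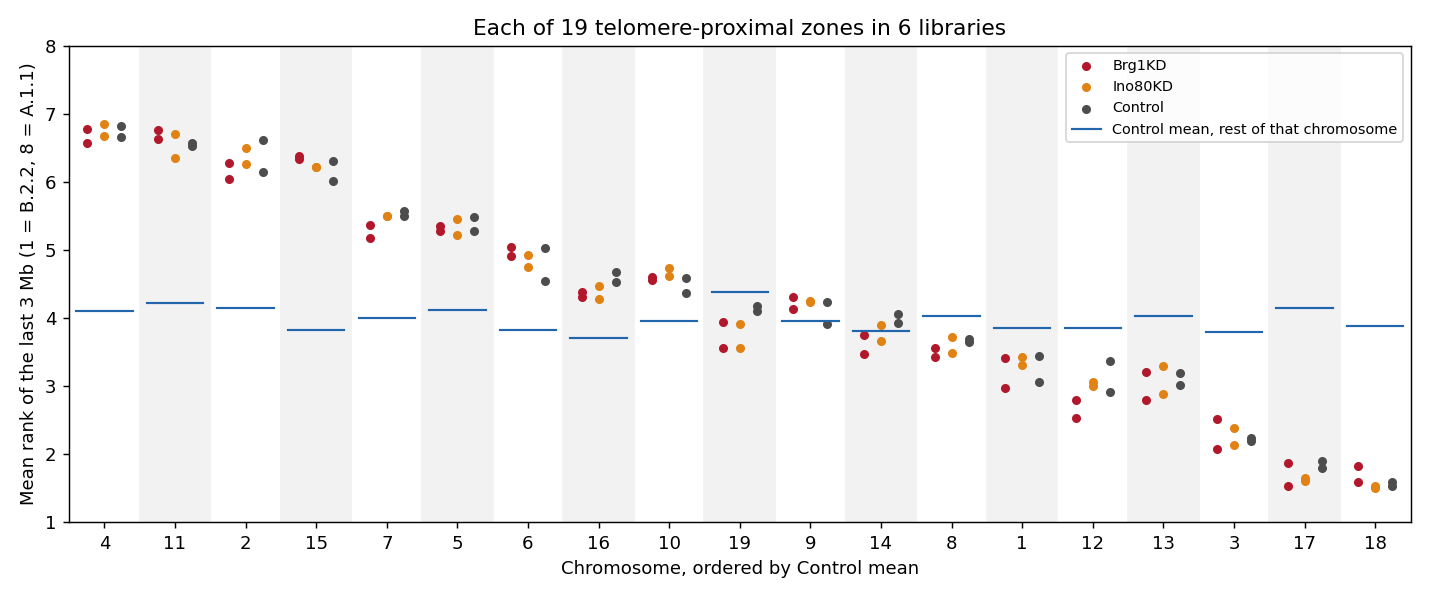
Mean rank of the last 3 Mb of each autosome (1 for B.2.2, 8 for A.1.1) in 6 libraries, 2 points per group, with chromosomes ordered by Control mean; blue lines give the Control mean of the rest of that chromosome. Zones run between mean ranks of 1.51 and 6.85, and Brg1KD lies below both Control libraries without overlap on chromosomes 7, 8, 12, 14, 16 and 19. Lack of overlap in either direction has a probability of 0.333 per zone by order alone.

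Zone labels repeated less well than labels elsewhere. Replicates of a group had the same label in 61.6% to 68.5% of zone bins, against 68.4% to 69.6% in the rest. Libraries of different groups had the same label in 54.6% to 75.1% of zone bins, with a median of 62.15% against 63.25% for replicates. In the zones, replicates were thus hardly more alike than libraries of different groups. All 6 libraries had 1 label in 24.9% of zone bins, against 34.0% of the rest, and 13.0% of zone bins were in A in some libraries and in B in others, against 8.98% of the rest. These shares limit every comparison of single bins below.

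Brg1KD was set against Control to ask how knockdown of the BAF ATPase bears on these ends. Zone A share was 43.2% and 44.9% in Brg1KD, against 46.0% and 46.6% in Control, a difference of -2.25 points that was -2.83 in batch 1 and -1.68 in batch 2. The groups did not overlap, but 2 against 2 libraries cannot reach an exact permutation p below 0.333, which is the value here. In the rest of the autosomes the difference was -0.912 points, also without overlap, and the zone-minus-rest difference was -1.34 points (exact p = 0.333). Mean rank gave no such excess, with a difference of -0.0848 classes in the zones and of -0.0847 in the rest.

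Brg1KD zones held more of B.2.2, a measure singled out after its values were seen. B.2.2 took 14.6% and 14.1% of zone bins in Brg1KD, 9.72% and 11.4% in Ino80KD, and 10.9% and 10.7% in Control. Brg1KD exceeded Control by 3.58 points (3.71 and 3.45 within batches) and Ino80KD by 3.80 points (4.86 and 2.74 within batches), without overlap in either case (exact permutation p = 0.333 each, the smallest possible). In the rest of the autosomes Brg1KD exceeded Control by 1.76 points and Ino80KD by 0.196 points, with overlap in both. The zone-minus-rest difference was 1.82 points for Brg1KD minus Control, with overlap (exact p = 0.667), and 3.60 points for Brg1KD minus Ino80KD, without overlap (exact p = 0.333), so an excess over Control beyond that of the rest was not separated from the spread between libraries. Within the zones the difference lay in the outer 1.5 Mb, where B.2.2 took 22.3% and 18.4% in Brg1KD, 12.2% and 13.3% in Ino80KD, and 10.97% and 13.6% in Control. B.2.2 was not counted in smaller steps. In the last 500 kb the mean rank was no lower in Brg1KD (3.84) than in Control (3.80), and it was 3.92 in Ino80KD. In the same outer bins the mean excess of Brg1KD was 8.05 points over Control and 7.61 points over Ino80KD. In the inner 1.5 Mb it took 6.88% and 9.88% in Brg1KD, 7.23% and 9.52% in Ino80KD, and 10.8% and 7.76% in Control, and the groups overlapped. B.2.1, the next class up, averaged 19.3% of zone bins in Brg1KD and 22.7% in Control, a difference of -3.36 points with overlap.

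B.2.2 bins were present in 10 of the 19 zones, and replicates often differed there. On chromosome 14 there were 22 and 15 such bins in Brg1KD, 6 and 0 in Ino80KD, and 5 and 0 in Control, so that Brg1KD lay above the other libraries. On chromosome 12 there were 15 and 14 in Brg1KD, 0 and 15 in Ino80KD, and 0 and 16 in Control, which separates batch 1 from batch 2 outside Brg1KD. On chromosome 17 there were 21 and 40 in Brg1KD, 36 and 33 in Ino80KD, and 25 and 19 in Control. Without chromosome 14 the excess of Brg1KD over Control was 2.29 points, and without chromosome 17 it was 2.99 points.

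By chromosome, the mean rank was lower in Brg1KD than in Control in 12 of 19 zones and higher in 7. Groups did not overlap in 6 of the lower zones, those of chromosomes 7, 8, 12, 14, 16 and 19, and in 2 of the higher ones, chromosomes 11 and 15. By order alone, 2 against 2 libraries lack overlap with a probability of 0.333. The share among other windows of 3 Mb was not counted, so these counts are not read as shifts of the zones. The zone of chromosome 12 had mean ranks of 2.80 and 2.53 in Brg1KD against 3.37 and 2.92 in Control. That of chromosome 14 had 3.47 and 3.75 against 4.07 and 3.93, and that of chromosome 19 had 3.95 and 3.57 against 4.18 and 4.10.

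Bin by bin, 142 of 1132 zone bins (12.5%) had Brg1KD and Control libraries that did not overlap, beside 10.3% of all bins. Of these, 56 lay towards A (4.95%, beside 3.13% of all bins) and 86 towards B (7.60%, beside 7.19%). Both Brg1KD libraries lay on the other side of the A/B border from both Control libraries in 27 zone bins (2.39%, beside 1.45% of all bins), with 11 towards A (beside 0.451%) and 16 towards B (beside 1.0%). limma, a linear model that moderates each bin's variance towards that of all bins, called 64 zone bins at an adjusted p under 0.05 (5.65%, beside 4.83% of all bins), 22 towards A (beside 1.53% of all bins) and 42 towards B (beside 3.3%), and each of these 64 had no spread within groups. Because 18941 bins have no such spread, these p-values are not calibrated and can call unchanged bins. With 1 variance common to all bins, 37 zone bins passed (3.27%, beside 3.4% of all bins), with 27 towards A (beside 1.02%) and 10 towards B (beside 2.38%), so the split turned round, and 1 bin was called by both fits. With 1 library left out at a time, groups did not overlap in 258 to 307 zone bins. A group of 1 library overlaps less easily than a group of 2, and the share over all bins was not counted. The rise is therefore no added support.

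The stretches that limma called towards A in Brg1KD were few and each moved by 1 class. The last 300 kb of the zone of chromosome 1 (chr1:195050001-195350000) held Cd46, Cr1l and Cr2, which encode regulators and a receptor of complement. They were labelled B.1.2 in both Brg1KD and both Ino80KD libraries and B.2.1 in both Control libraries. A stretch of 300 kb on chromosome 6 (chr6:147100001-147400000) with Klhl42 and Pthlh, which encodes a hormone related to parathyroid hormone, was B.1.2 in Brg1KD and B.2.1 in Ino80KD and Control. Kcnj15, a potassium channel gene (chr16:95100001-95300000), was B.1.1 in Brg1KD and B.1.2 in Ino80KD and Control, and a stretch of chromosome 18 that holds no gene midpoint (chr18:90200001-90400000) was B.1.2 in Brg1KD and B.2.1 in the other 4 libraries. The adjusted p of limma was 8.0e-08 for each, and with a common variance it was 0.236 for each, so that none of them passed.

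Towards B, limma called 11 stretches, against 5 towards A. Over all bins it called 1576 bins towards B and 728 towards A, so a lean towards B was not particular to the zones. With a common variance the split of zone bins turned round, as given above. Adcyap1, which encodes the neuropeptide PACAP, lies in 350 kb of chromosome 17 (chr17:93200001-93550000) that was B.2.1 in both knockdowns and B.1.2 in Control. The last 300 kb of chromosome 14 (chr14:124550001-124850000), into which the gene body of Fgf14 reaches, was B.2.2 in Brg1KD and B.2.1 in Ino80KD and Control. Dscam, a gene of neuronal cell adhesion (chr16:96650001-96900000), was B.2.1 in Brg1KD and B.1.2 in Ino80KD and Control. B3glct, a glucosyltransferase gene (chr5:149700001-149900000), was A.2.2 in both knockdowns and A.2.1 in Control. The p-values were those of the stretches called towards A under both fits.

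Ascl2, a transcription factor of the trophoblast, Tspan32, Cd81, which encodes a tetraspanin, Tssc4 and Trpm5, a taste cell channel gene, lie side by side in the imprinted cluster of distal chromosome 7 (chr7:142950001-143150000). All 5 were A.2.1 in both Brg1KD libraries and A.1.2 in both Ino80KD and both Control libraries (limma, adjusted p = 8.0e-08, and adjusted p = 0.236 with a common variance). These were the 5 of 19 listed cluster genes that limma called in Brg1KD (towards B, beside 3.3% of all bins), and they sit in 1 called stretch of 4 bins, so they are not separate calls. limma called none of the 19 in Ino80KD (beside 3.22% of all bins in either direction). The median shift over the 19 was 0, as it was over all bins. H19, Igf2 and Ins2, at one flank, were A.2.2 in all 6 libraries, Th was B.1.2 in all 6, and Kcnq1, on the other flank, was B.1.1 in all 6. The imprinted growth regulators Cdkn1c and Phlda2 were A.1.2 in the batch 1 library and A.1.1 in the batch 2 library of Brg1KD, and A.1.2 in the other 4.

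The type II keratin genes of chromosome 15, which are expressed in epithelia, held a block that lay in A in Brg1KD and in B in Control without a limma call. Krt75, Krt6b, Krt6a, Krt5 and Krt71 are listed members in a block of 200 kb (chr15:101550001-101750000) that also holds Krt90 and Gm5414. It was A.2.1 and A.2.2 in Brg1KD, B.1.1 in both Ino80KD and B.1.1 in both Control libraries, a shift of 1.5 classes (limma, adjusted p = 0.413, and adjusted p = 0.0466 with a common variance). The Krt5 promoter printed above, with few CG dinucleotides, lies in this block. The other listed keratin genes were in A in all 6 libraries, so in Ino80KD and Control the block was an island of B within A. Of the 24 listed keratin genes in the zone, none was called by limma in any of the 3 contrasts. Against Ino80KD, 15 of the 24 had higher labels in both Brg1KD libraries (beside 4.24% of all bins), all within 1 run of 9 bins (chr15:101550001-102000000). Against Control 5 did (beside 3.13% of all bins), all within the block of 4 bins.

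**Figure D4:**
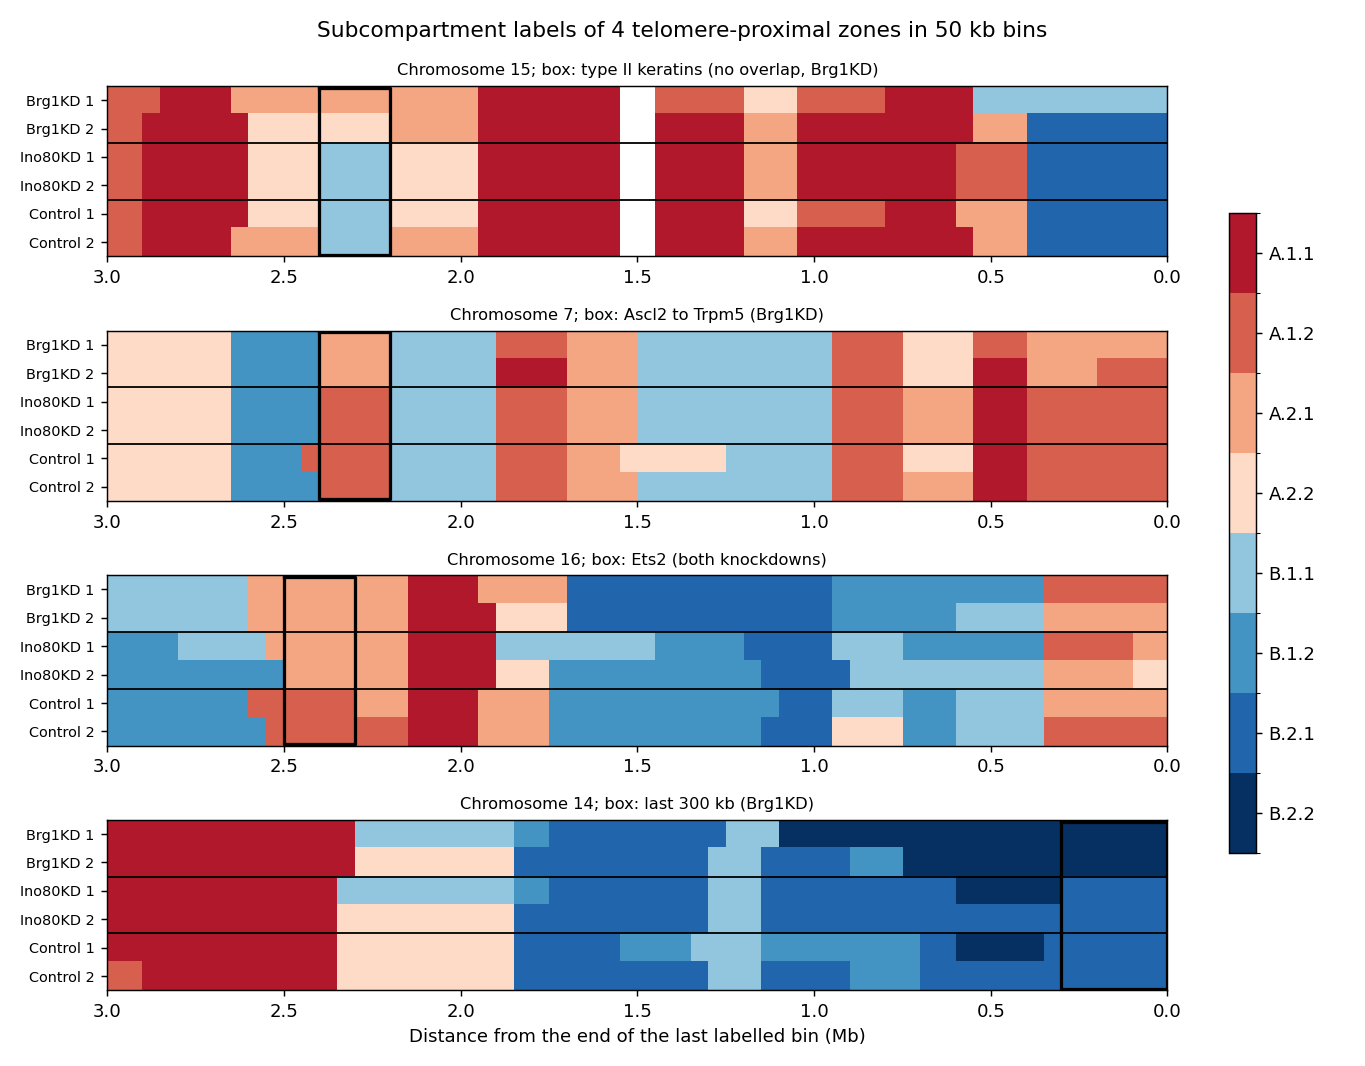
Subcompartment labels in 50 kb bins of 4 zones (rows are libraries, Brg1KD above Ino80KD above Control; the horizontal axis is the distance from the end of the last labelled bin in Mb; blue classes are B, red classes are A, white is unlabelled). The boxes mark the keratin block, A in Brg1KD and B.1.1 elsewhere; the Ascl2 to Trpm5 block, 1 class lower in Brg1KD; the Ets2 block, 1 class lower in both knockdowns; and the last 300 kb of chromosome 14, B.2.2 in Brg1KD.

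Larger shifts stood in single bins whose libraries also varied, and limma did not call them. The bin of Tcaim (chr9:122800001-122850000) was A.1.2 in both Brg1KD libraries, B.1.2 and A.1.2 in Ino80KD, and B.1.2 and B.1.1 in Control, a shift of 3.5 classes in Brg1KD (limma, adjusted p = 0.808, and adjusted p = 2.15e-10 with a common variance). The bin of Lrrc40 (chr3:158050001-158100000) was A.1.2 in all 4 knockdown libraries, against A.2.1 and B.2.1 in Control, a shift of 3 classes. At the tip of chromosome 4, Samd11 and Vmn2r129, a vomeronasal receptor gene, lie in 150 kb (chr4:156250001-156400000) that was A.2.1 and A.2.2 in Brg1KD and B.1.1 in both Control libraries. The bin of Samd11 was A.1.2 and A.1.1 in Ino80KD, 3.5 classes above Control (limma, adjusted p = 0.167, and adjusted p = 2.48e-10 with a common variance).

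Ino80KD was compared with Control in the same way. Zone A share was 42.2% and 46.2% in Ino80KD, against 46.0% and 46.6% in Control. The mean difference of -2.08 points was -3.80 in batch 1 and -0.353 in batch 2, and the rest of the autosomes differed by -1.02 points. The zone-minus-rest difference was -1.05 points and turned to +0.908 without the batch 1 library of Ino80KD, so no excess of the zones held across libraries. The mean rank differed by -0.0402 classes in the zones and by -0.0784 in the rest. Segment borders were sparser in Ino80KD zones, at 2.30 and 2.22 per Mb against 2.42 and 2.46 in Control, without overlap (exact p = 0.333), while the rest differed by -0.00925 per Mb.

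By chromosome, the mean rank was lower in Ino80KD than in Control in 11 zones and higher in 7. Groups did not overlap in 4 of the lower zones, those of chromosomes 14, 16, 17 and 19, and in 1 of the higher ones, chromosome 10. The limits given for the zones of Brg1KD hold for these counts too. The zone of chromosome 19 had mean ranks of 3.57 and 3.92 in Ino80KD against 4.18 and 4.10 in Control, so it was lower in both knockdowns. Its A share was 43.3% and 28.3% in Brg1KD, 20.0% and 43.3% in Ino80KD, and 45.0% and 45.0% in Control, and 1 library of each knockdown, from different batches, made most of the difference.

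In 59 zone bins (5.21%) the Ino80KD and Control libraries did not overlap, beside 6.25% of all bins. There were 20 towards A (beside 1.76%) and 39 towards B (beside 4.5%). limma called 30 zone bins, all without residual spread (2.65%, beside 3.22% of all bins), with 8 towards A (beside 0.855%) and 22 towards B (beside 2.37%). With a common variance 8 passed (0.707%, beside 0.683% of all bins), with 6 towards A (0.530%, beside 0.281%) and 2 towards B (0.177%, beside 0.402%). Opposite sides of the A/B border were taken in 5 bins (0.442%, beside 0.778% of all bins), with 3 towards A (0.265%, beside 0.161%) and 2 towards B (0.177%, beside 0.616%). With 1 library left out at a time, groups did not overlap in 135 to 245 zone bins, under the same limits as for Brg1KD.

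Ets2, an ETS family transcription factor gene needed in trophoblast, was the only listed lineage transcription factor in a called bin. Its 200 kb (chr16:95600001-95800000) were A.2.1 in both Brg1KD and both Ino80KD libraries and A.1.2 in both Control libraries (limma, adjusted p = 8.0e-08 in Brg1KD and adjusted p = 1.2e-07 in Ino80KD, with adjusted p = 0.236 and adjusted p = 0.362 under a common variance). Hmgb1, which encodes an abundant chromatin protein, has its midpoint in 100 kb (chr5:148950001-149050000) that were A.1.1 in the 4 knockdown libraries and A.1.2 in Control. Its promoter lies in the next bin, which was A.1.1 in 5 libraries and A.1.2 in 1 Control library. Ccdc172 (chr19:58450001-58600000), labelled B.1.2 in both knockdowns and B.1.1 in Control, and the bin of Ppdpf and Ptk6 (chr2:181150001-181200000), A.1.2 against A.1.1, also moved in both. The stretches with Cd46, Adcyap1 and B3glct described above were called in Ino80KD as well (limma, adjusted p = 1.2e-07 each, and adjusted p = 0.362 with a common variance). The knockdowns share their Control libraries, so a bin in which both Control libraries stand apart can be called in both.

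Without a limma call, 4 bins of Ino80KD near the inner border on chromosome 10 (chr10:127550001-127750000) held Lrp1, a lipoprotein receptor gene, Stat6, a transcription factor of cytokine signalling, Nab2, Nemp1, Myo1a, Tac2 and Zbtb39. They were A.1.1 in both Ino80KD libraries and A.1.2 in both Control libraries, while Brg1KD had A.1.1 in 1 library and a mean rank of 6.75 in the other.

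Set directly against each other, the knockdowns differed without overlap in B.2.2, as given above. In the zones 88 bins did not overlap between Brg1KD and Ino80KD (7.77%, beside 8.86% of all bins), with 38 towards A (beside 4.24%) and 50 towards B (beside 4.63%) in Brg1KD. Opposite sides of the A/B border were taken in 11 bins (0.972%, beside 1.31% of all bins), with 6 towards A (beside 0.706%) and 5 towards B (beside 0.608%). limma called 38 zone bins (3.36%, beside 3.96% of all bins), with 16 towards A (beside 1.82%) and 22 towards B (beside 2.14%), and a common variance called 9 (0.795%, beside 1.08%), with 5 towards A (beside 0.534%) and 4 towards B (beside 0.545%). With 1 library left out at a time, groups did not overlap in 200 to 287 zone bins, under the same limits as in the contrasts with Control. Among the limma calls were the stretches of Pthlh, Kcnj15, Dscam, Ascl2 and the chromosome 14 tip. One bin on chromosome 14 (chr14:122500001-122550000), 3.5 classes higher in Brg1KD, was A.1.1 in both Brg1KD libraries, B.1.1 and A.2.2 in Ino80KD, and A.2.2 in both Control libraries. Its adjusted p from limma was 0.0456, which became 0.151 with the replicate block and 1.5e-10 with a common variance. It was the 1 bin that both variance models called in this contrast.

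Other listed families of the zones kept close to their Control labels. The 9 Hoxc genes, which pattern the body axis, were A.1.2 and A.1.1 in Brg1KD, A.1.1 in both Ino80KD, and A.1.2 and A.1.1 in Control libraries, with none called. Fgf3, Fgf4 and Fgf15, growth factor genes that neighbour each other on chromosome 7, were A.1.2 and A.1.1 in Brg1KD and A.1.1 in the other 4 libraries. Fgf10 and Fgf14 were B.2.2 or B.2.1 in all 6. None of the 5 fibroblast growth factor genes was called. Rtel1, a helicase gene of telomere maintenance and the single listed gene of that function in a zone, was A.1.1 in every library but 1 Control library, where it was A.1.2. Erg, the ETS gene beside Ets2, was B.1.1 in both Brg1KD, B.1.1 and B.1.2 in Ino80KD, and B.1.2 in both Control libraries, opposite in direction to Ets2 but not called (adjusted p = 0.733). None of the 16 listed BAF subunit genes, 14 listed INO80 subunit genes or 12 listed fibroblast markers lies in the zones, but Smarcc2, a BAF subunit gene outside that list, does, and it was A.1.1 in all 6 libraries. Of the 24 listed pluripotency genes only Fgf4 lies in a zone.

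Loops in the zones were about as frequent as elsewhere. The zones held 7 loops each in the Brg1KD list, 6.26 in the Ino80KD list and 7.21 in the Control list on average, against 6.53, 5.97 and 6.42 in the other 774 windows of 3 Mb. The range over zones was 2 to 12 in Brg1KD, 2 to 12 in Ino80KD and 3 to 12 in Control. Median loop length was 220 kb, 210 kb and 210 kb in the 3 lists in that order, against 250 kb in the rest for each list. Zone loops had to fit within 3 Mb and loops of the rest did not, so these lengths are not like for like. Each list is the only one of its group and was taken as pooled from both libraries, so these numbers have no replicate check and no test was made. By the labels of the same group, both anchors lay in A for 48.9% of zone loops in Brg1KD, 48.7% in Ino80KD and 54.7% in Control, and the shares in the rest were 53.3%, 54.5% and 54.9%. A protein-coding gene lay at both anchors of 12, 15 and 15 zone loops in the same lists (9.02%, 12.6% and 10.95%). The shares in the rest were 6.44%, 7.58% and 6.67%. The zones also held more genes per Mb, and whether that bears on these shares was not tested.

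The lists held 255 different zone loops at identical anchors of 10 kb. All 3 lists shared 47, and 59 were in the Brg1KD list alone, 48 in the Ino80KD list alone and 61 in the Control list alone. Another 11 were in both knockdown lists, 16 in Brg1KD and Control, and 13 in Ino80KD and Control. Of the 137 Control loops, 63 were in the Brg1KD list (46.0%, exact 95% interval 37.4% to 54.7%, counting error only), and the share in the rest of the autosomes was 45.9%. In the Ino80KD list there were 60 (43.8%, interval 35.3% to 52.5%), against 46.9% in the rest. When anchors could differ by 10 kb, 99 (72.3%) had a match in Brg1KD, against 77.3% in the rest, and 97 (70.8%) in Ino80KD, against 75.5%. Control loops without a match in either knockdown list then numbered 22 of 137 (16.1%, interval 10.4% to 23.3%), against 13.3% in the rest, so most of the 61 loops held by the Control list alone had a counterpart within 1 anchor bin. Absence from a list says only that no loop was listed there, since contact counts were not used here.

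**Figure D5:**
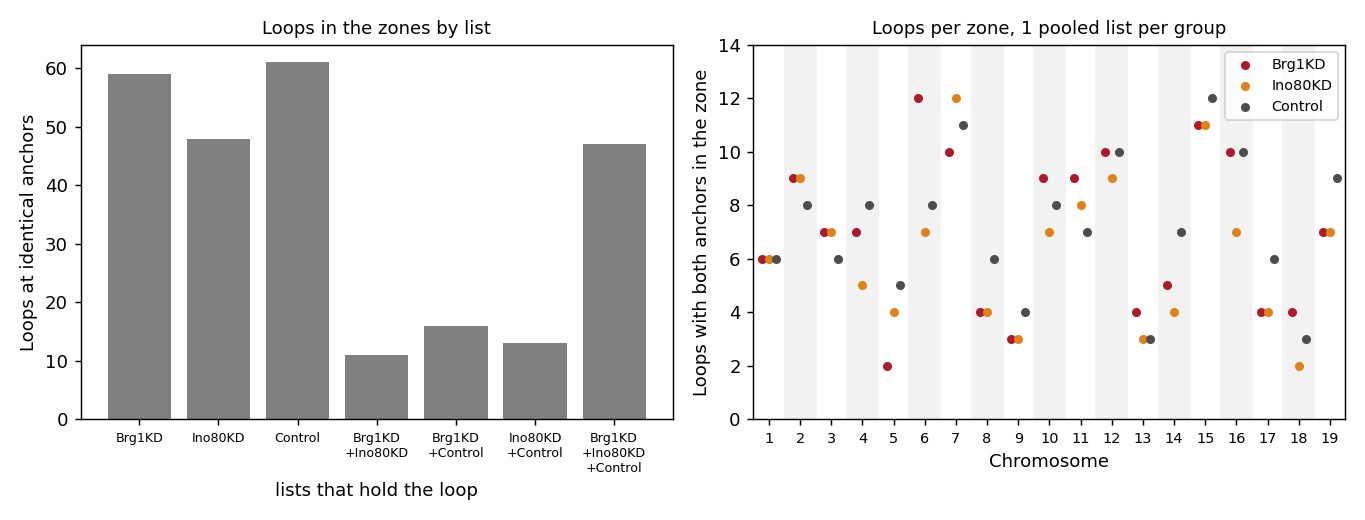
Left, number of zone loops held by each combination of the 3 lists at identical anchors, as bars from 0; right, loops per zone for each chromosome, 1 point per list. The counts for 1 list alone (59, 48 and 61) exceed the 47 shared by all, and per zone the lists range from 2 to 12 loops.

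Loops found at identical anchors in all 3 lists included the longest of the Brg1KD list's zone loops, a span of 1250 kb on chromosome 9 (anchors at 121740001 and 122990001). The keratin block is spanned by a loop of 720 kb on chromosome 15 (anchors at 101330001 and 102050001) that was in all 3 lists, although the block had other labels in Brg1KD. Shared loops with a gene at both anchors joined Ccnd1, the gene of cyclin D1, to Mrgprf over 380 kb, Topaz1 to Zkscan7 over 150 kb, Oprl1 to Polr3k over 150 kb, and Coq10a and Cs to Smarcc2, a BAF subunit gene, over 90 kb.

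Control loops without a match within 10 kb in either knockdown included 1 of 1160 kb on chromosome 12 (anchors at 117680001 and 118840001) that ends at Sp8, a transcription factor gene of limb and brain. Its longer neighbour of 1680 kb to Sp8 was missing from Brg1KD and had a match within 10 kb in Ino80KD. A loop of 270 kb on chromosome 4 that joins Ube2j2 to Klhl17, Perm1 and Plekhn1 was missing from both knockdowns, as was 1 of 210 kb on chromosome 9 that joins Topaz1 to Kif15. The loop of 290 kb between Vax1 and Emx2, a pair of homeobox genes of the forebrain (anchors at 59170001 and 59460001 on chromosome 19), had a match within 10 kb in Ino80KD and none in Brg1KD. The anchor at 59460001 holds the end of Emx2, and the Emx2 promoter lies outside it. The bin of the Emx2 promoter was A.2.2 and B.1.1 in Brg1KD, B.1.1 and A.2.2 in Ino80KD, and A.2.2 in both Control libraries. In the imprinted cluster, the loop of 230 kb between Syt8 with Tnni2 and Ins2 was in the Ino80KD and Control lists and had no match in Brg1KD, while that of 130 kb between Mrpl23 and Igf2 had a match within 10 kb in Brg1KD. The 11 loops of both knockdown lists that the Control list lacks were led in length by 520 kb on chromosome 6, 390 kb on chromosome 16 and 380 kb on chromosome 12, and each of these 3 lay within 10 kb of a Control loop.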

How the data were processed

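Hi-C was made from 6 libraries of E14 cells. The deposited files hold, per library, segments with 1 of 8 subcompartment labels, read here as a score (the rank of the class, 1 for B.2.2 to 8 for A.1.1), and, per group, 1 list of loop positions taken as pooled over its libraries. The submitters' processing notes give the build as mm10 and name BWA, SAMtools, Juicer 2.0, HOMER and bedtools, with no roles, and the subcompartment caller and the read depth are not given in the sources used here, so no interval for depth can be had. Labels were laid on bins of 50 kb, and bins labelled in all 6 libraries were kept. Genes were placed in bins by midpoint from a RefSeq table of GRCm38.p6, and loop anchors measure 10 kb. For loops, a protein-coding gene was placed at an anchor if its start or its end lay within it, so a named gene need not have its promoter there.

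Group differences per library were tested by exact permutation over libraries, two-sided, and zones against the rest by exact sign flips. Ranks per bin were fitted over all 47717 bins with limma 3.58.1 in R 4.3.3 (empirical Bayes, all 6 libraries, Benjamini-Hochberg adjustment, adjusted p under 0.05), and the fit was tested on simulated data, where it also called unchanged bins. Named stretches were, per contrast and direction, the 4 with the largest summed shift among those limma called (filled up from those whose groups did not overlap), with their genes. Listed genes in called bins were named, with others of large shift, the zones at both ends of the order, and the longest loops and those with genes at both anchors, per list combination. The bins of Tcaim and of Ppdpf with Ptk6, the loops of Syt8 and Mrpl23 and the B.2.2 share were chosen after their values were seen. Members and lists were chosen with earlier results of these data known. The labels give the replicate number as the batch, so same-numbered libraries pair. Their deviations from group means over zone bins correlated at 0.106 (Brg1KD with Ino80KD), 0.102 (Brg1KD with Control) and 0.113 (Ino80KD with Control), across bins, which are not independent. Alternatives were the replicate block, a common variance, the 4 libraries of a contrast, other zone lengths, wider loop matching and leaving out each library.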

Additional observations from a re-analysis of the deposited data

How the results depend on the processing

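With the replicate block, limma called 80 zone bins in Brg1KD against Control, 37 in Ino80KD against Control and 46 in Brg1KD against Ino80KD. Shares over all bins were not counted for this and the other alternatives below, except for the common variance. The block ended 1 call among the named stretches, that at 122500001 on chromosome 14 (limma, adjusted p = 0.151). That call also ended in the fit of 4 libraries (limma, adjusted p = 0.138) and without Brg1KD replicate 1 or 2 (adjusted p = 0.155 and adjusted p = 0.146). Block means of the shares and ranks equal those reported, with 0.5 as the smallest exact p that 2 batches allow. For Brg1KD against Control, Ino80KD against Control and Brg1KD against Ino80KD in turn, limma called 37, 8 and 9 zone bins with a common variance, 118, 50 and 69 in the 4 libraries of the contrast, and 32, 12 and 23 in the last 1.5 Mb, and the last 5 Mb gave 53 for Ino80KD against Control. Groups did not overlap in 61, 21 and 47 bins of the last 1.5 Mb and in 255, 110 and 161 of the last 5 Mb. In the last 1.5 Mb, zone minus rest turned to -2.70 points of A share and to -0.0534 classes, and its border excess was 0.0929 per Mb (exact p = 0.156). Mean rank of Ino80KD minus Control turned to 0.0186 classes there. Its B.2.2 difference, -0.221 points over 3 Mb, turned to 0.443 points over 1.5 Mb and 0.134 points over 5 Mb. The zone-minus-rest difference in mean rank of Brg1KD, near 0 as reported, was 0.00864 classes over 5 Mb and 0.000531 with 60 labelled bins per zone. Loops numbered 46 in Brg1KD, 45 in Ino80KD and 46 in Control over 1.5 Mb, and 222, 209 and 227 over 5 Mb. Control loops found again were 72.3% in Brg1KD and 70.8% in Ino80KD with anchors within 10 kb, and 75.9% and 71.5% within 20 kb.

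With each library left out in turn, and a lone library assumed to vary like the other groups, limma called 118 to 150 zone bins in Brg1KD against Control, 50 to 116 in Ino80KD against Control and 69 to 122 in Brg1KD against Ino80KD, and groups did not overlap in 258 to 307, 135 to 245 and 200 to 287. For Brg1KD minus Control, the A share difference of the zones ran over -3.09 to -1.41 points and that of zone minus rest over -2.01 to -0.669. The mean rank difference ran over -0.134 to -0.0358 classes, zone minus rest over -0.0569 to 0.0568, and B.2.2 over 3.36 to 3.80 points. For Ino80KD minus Control these were -4.06 to -0.0883, -3.01 to 0.908, -0.0892 to 0.00883, -0.0187 to 0.0950, and -1.06 to 0.618, in the same order and units. For Brg1KD minus Ino80KD they were -2.16 to 1.81, -2.25 to 1.67, -0.0764 to -0.0128, -0.0864 to 0.00989, and 2.96 to 4.64. Zone minus rest over 5 libraries ran over 5.73 to 6.51 points of A share, 0.323 to 0.352 classes and 0.203 to 0.261 borders per Mb, each with an exact p of 0.0625, the smallest that 5 libraries allow. Of 229 alternatives for the main results, 135 stayed the same. For tests this means the same direction and side of the threshold, and for counts and shares a value near the main one. Another 19 turned the direction, 19 no longer passed the threshold and 56 moved a count or share. Tests of 2 against 2 libraries could not pass the threshold under any setting, and sign flips over 5 libraries cannot pass it either. The tally is therefore no measure of robustness. Read depth is not known, so its part in the poorer repeat of zone labels was not tested, and the cause of each change listed was not tested.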
